A study of Homo sapiens with 33 samples.

Results

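H3K27ac, acetylation of histone H3 at lysine 27, was measured in 149487 windows of 5 kb around annotated start sites on chromosomes 1 to 22, of 153958 windows on all chromosomes. Each window is described by its value in EZH2-/- (Null) minus EZH2+/+ (WT) human embryonic stem cells (ESCs), beside the same difference in input chromatin. The windows carry 34447 of 35683 gene names. For each name the window with the most H3K27ac, averaged over both genotypes, was kept, and the 32485 names with a mean of at least 1 RPM (reads in the window per 1 M reads of the library) were compared. The windows were chosen by position, without use of their change. The kept windows and the compared names were chosen by their mean H3K27ac level in WT and Null ESCs. A name that is low in WT ESCs can therefore pass through its level in Null ESCs, and the reverse.

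Acetyl groups at H3K27 are written by EP300 and CREBBP at active promoters and enhancers. The same lysine can instead be trimethylated by the polycomb complex PRC2, whose catalytic subunit is EZH2, and H3K27me3 marks the promoters of many silent developmental genes in ESCs. A lysine cannot carry both marks at once. Many of these silent promoters also carry H3K4me3, the mark of active or poised start sites, and are called bivalent.

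All cells were H9, a line of human ESCs, sorted by flow cytometry for the cell-surface antigen SSEA4 after growth on mouse feeder cells. EZH2+/+ (WT) cells were the parental line, and EZH2-/+ (Het) cells had 1 allele disrupted with CRISPR/Cas9. EZH2-/- (Null) cells came from an EZH2-/+ line that carried a doxycycline (DOX)-inducible EZH2 transgene, were targeted again in the presence of DOX and were then kept without it. EZH2-/- +EZH2 (Null+EZH2) cells are Null cells in which DOX induces the transgene. The edited lines are clonal, so a difference between clones cannot be told apart from the genotype. Native ChIP-seq has 1 column for each mark and genotype, which averages libraries on the log2 scale. The labels list 2 libraries per column and the low values have the steps of 2, while the paper speaks of more replicates than that, and depths and counting intervals here rest on 2. ChIP-seq values therefore have no replicate error here and carry no p value. RNA-seq has 3 libraries per genotype.

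Depth was 12.1 M reads per library for H3K27ac in WT, 9.89 M in Het, 8.71 M in Null and 20.8 M in Null+EZH2 ESCs, and 17.8 to 23.8 M for input. EZH2 RNA was at 68.6, 63.3 and 59.5 RPM in the WT libraries and at 11.5, 8.65 and 9.68 RPM in the Null libraries, or -2.68 as a log2 fold change (standard error 0.17, adjusted p = 5.05e-06, limma). The 7 ESC markers POU5F1, SOX2, NANOG, LIN28A, TDGF1, DNMT3B and ZFP42 summed to 2092 to 2707 RPM in WT and 3160 to 3556 RPM in Null libraries. The 6 fibroblast markers summed to 213 to 304 RPM and 92.1 to 341 RPM, and the neural markers PAX6, SOX1 and NEUROD1 to 6.88 to 18 RPM and 0.528 to 1.78 RPM. The endoderm markers FOXA2, HHEX and CXCR4 summed to 14 to 20 RPM and 25.3 to 47.8 RPM, the trophoblast and amnion markers to 4.77 to 7.86 RPM and 4.59 to 7.72 RPM, and the blood and endothelium markers to 0.437 to 0.599 RPM and 1.65 to 2.61 RPM. In Het libraries the ESC markers summed to 2875 to 3458 RPM and the neural markers to 0.994 to 3.84 RPM. In Null+EZH2 libraries these sums were 3106 to 3576 RPM and 0.509 to 0.640 RPM. For both sums the WT libraries thus stood apart from those of every edited line, with or without EZH2. The trophoblast and amnion marker CGA was at 0 in all libraries. The part of other cell types in the H3K27ac values was not tested, and in bulk samples fewer cells with a mark cannot be told apart from less of the mark per cell.

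The start regions below are single examples of gains and losses in sequence. Each is the RefSeq promoter on GRCh38, from 250 bases before to 50 bases after the annotated start, on the strand of the gene, with every CpG in capitals. CDKN2A (chr9:21995275-21995574, minus strand), FOSL2 (chr2:28392608-28392907, plus) and FOXD3 (chr1:63322317-63322616, plus) gained H3K27ac. FGF3 (chr11:69819367-69819666, minus) and STOML3 (chr13:38990782-38991081, minus) lost it, and GAPDH (chr12:6535014-6535313, plus) is a housekeeping gene shown for comparison.
CDKN2A: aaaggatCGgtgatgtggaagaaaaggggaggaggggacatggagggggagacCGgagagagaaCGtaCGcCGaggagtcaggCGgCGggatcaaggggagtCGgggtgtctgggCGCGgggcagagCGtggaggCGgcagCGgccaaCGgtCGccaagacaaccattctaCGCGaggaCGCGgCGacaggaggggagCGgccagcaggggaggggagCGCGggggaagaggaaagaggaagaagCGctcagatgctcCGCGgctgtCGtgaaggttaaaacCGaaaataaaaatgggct
FOSL2: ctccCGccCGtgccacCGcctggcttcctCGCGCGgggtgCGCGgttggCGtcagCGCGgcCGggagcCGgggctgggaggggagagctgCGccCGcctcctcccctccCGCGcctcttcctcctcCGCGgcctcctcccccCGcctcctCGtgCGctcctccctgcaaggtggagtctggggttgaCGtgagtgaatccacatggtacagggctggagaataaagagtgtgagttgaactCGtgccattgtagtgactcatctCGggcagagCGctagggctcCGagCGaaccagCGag
FOXD3: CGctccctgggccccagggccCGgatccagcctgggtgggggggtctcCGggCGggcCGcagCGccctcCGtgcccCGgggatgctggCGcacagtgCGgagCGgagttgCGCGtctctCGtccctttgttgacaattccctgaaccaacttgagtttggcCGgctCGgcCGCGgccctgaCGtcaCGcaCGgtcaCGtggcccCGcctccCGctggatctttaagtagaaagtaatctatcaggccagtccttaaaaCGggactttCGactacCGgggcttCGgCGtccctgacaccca
FGF3: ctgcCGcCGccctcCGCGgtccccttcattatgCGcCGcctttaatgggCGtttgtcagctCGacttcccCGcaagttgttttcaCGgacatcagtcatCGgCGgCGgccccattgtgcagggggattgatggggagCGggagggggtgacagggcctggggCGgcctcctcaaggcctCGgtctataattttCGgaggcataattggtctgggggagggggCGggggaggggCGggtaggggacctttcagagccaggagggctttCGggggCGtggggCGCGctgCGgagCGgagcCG
GAPDH: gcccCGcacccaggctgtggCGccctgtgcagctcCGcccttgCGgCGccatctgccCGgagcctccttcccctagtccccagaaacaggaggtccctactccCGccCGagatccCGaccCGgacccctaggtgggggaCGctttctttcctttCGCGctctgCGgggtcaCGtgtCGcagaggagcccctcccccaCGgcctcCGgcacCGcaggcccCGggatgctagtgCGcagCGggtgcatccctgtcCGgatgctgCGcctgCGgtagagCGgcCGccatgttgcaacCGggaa
STOML3: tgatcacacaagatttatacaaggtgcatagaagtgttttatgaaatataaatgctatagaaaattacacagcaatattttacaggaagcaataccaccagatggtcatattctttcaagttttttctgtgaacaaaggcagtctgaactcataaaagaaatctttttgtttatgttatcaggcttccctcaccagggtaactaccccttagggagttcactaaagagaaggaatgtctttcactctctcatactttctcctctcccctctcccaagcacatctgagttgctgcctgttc
CDKN2A has 28 CpGs, FOSL2 29, FOXD3 29, FGF3 26, GAPDH 28 and STOML3 0. A promoter was found for 10585 of the compared names, with a median of 22 CpGs and at least 1 CpG in 98.3%. Of 2112 names that gained H3K27ac by 1 or more, 931 had such a promoter, with a median of 26 CpGs. Of 503 names that lost it by 1 or more, 71 had one, with a median of 3. All 35116 RefSeq promoters had a median of 14, and 96.0% of them held a CpG. FGF3 shows that a CpG-rich promoter was also among the losses. The gains also held promoters with fewer CpGs than the 3 printed, such as those of GATA3 (5 CpGs), LHX6 (7) and GIPR (12).

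H3K27ac around start sites was higher in Null than in WT ESCs at most windows. The median was 2.24 RPM in WT, 2.41 RPM in Het, 2.69 RPM in Null and 2.5 RPM in Null+EZH2 ESCs. The median of input stayed between 1.49 and 1.6 RPM. The median change from WT to Null was 0.26 on the log2(RPM + 0.1) scale (interquartile range -0.15 to 0.61), and 67.2% of windows had more H3K27ac in Null ESCs. The same change of input had a median of -0.01 and an SD of 0.26 over windows. A rise of 1 or more was seen at 9743 windows and a fall of 1 or more at 4701, against 12 and 30 windows for input.

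H3K27ac reads were also more concentrated on the highest windows in Null ESCs. The top 5% of windows held 8.93% of the H3K27ac RPM in WT ESCs and 10.9% in Null ESCs, and 11% in Null+EZH2 ESCs, against 7.71% and 7.74% for input in WT and Null ESCs. Enrichment over input at promoters with H3K4me3 alone had a median of 0.86 (log2 ratio) in WT, 0.96 in Het, 1.33 in Null and 1.18 in Null+EZH2 ESCs. How well each precipitation worked was not tested, and it cannot be told apart from a change of the mark across all promoters. The same holds for the differences between promoter classes given next, since a stronger enrichment also widens the gap between marked and unmarked promoters. Promoters with neither mark had a median log2 ratio to input of 0.40 in WT and 0.38 in Null ESCs.

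Promoters with both H3K27me3 and H3K4me3 in WT ESCs gained the most H3K27ac of 4 classes. Promoters were sorted by their marks in WT ESCs. H3K27me3 was counted as present when it was over 0.1 log2 RPKM (RPM per kb of window) and input was under 0.1. H3K4me3 was counted as present when over 0.1, with no limit on input. The 2861 compared names with both marks had a median change of 0.72 (interquartile range 0.42 to 1.02). It was 0.47 for 750 names with H3K27me3 alone, 0.50 for 10291 with H3K4me3 alone and 0.10 for 18583 with neither mark. A rise of 1 or more was seen in 26.3% of names with both marks, 12.3% with H3K27me3 alone, 8.36% with H3K4me3 alone and 2.19% with neither, against 6.5% of all names compared. Median input changes of the 4 classes lay between -0.03 and 0.01.

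The Null+EZH2 column set the bivalent promoters apart from those with H3K4me3 alone. With both marks, the median was 1.61 RPM in WT, 1.92 RPM in Het, 2.70 RPM in Null and 1.59 RPM in Null+EZH2 ESCs over all 3047 names, so the Null+EZH2 cells were at the WT level. At the 10326 promoters with H3K4me3 alone it was 2.58, 3.03, 3.69 and 3.39 RPM in the same order, and there the Null+EZH2 cells were nearer to Null ESCs. With neither mark, the medians of the 4 genotypes lay between 2.16 and 2.35 RPM. Each genotype has 1 column, so none of these differences was tested.

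**Figure D1:**
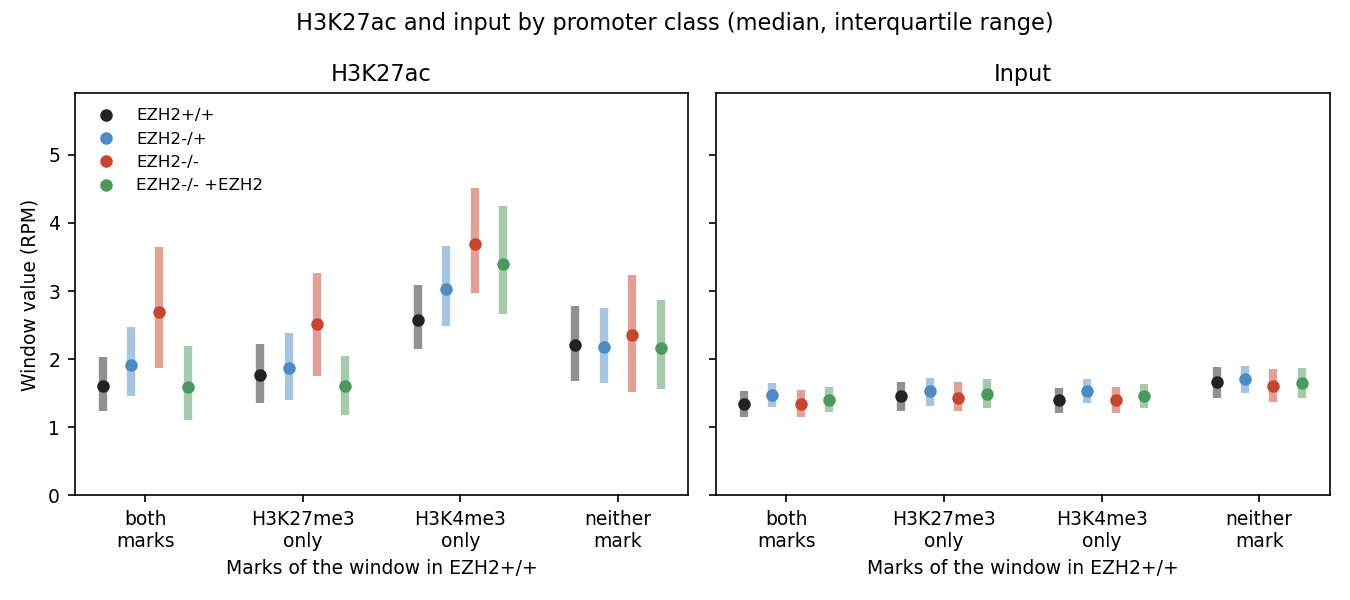
H3K27ac (left) and input (right) in RPM at the kept window of each gene name, by the marks of that window in WT ESCs and by genotype. Points are medians over gene names and bars the interquartile range. With both marks, H3K27ac rose from 1.61 RPM in WT to 2.70 RPM in Null and was 1.59 RPM in Null+EZH2 ESCs, while input was 1.34 and 1.35 RPM in WT and Null ESCs.

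The excess at bivalent promoters was also seen at matched levels of H3K27ac. Among promoters with 0.9 to 1.31 RPM over both genotypes, the median change was 0.34 with both marks (363 names) and 0.21 with H3K4me3 alone (58 names). Between 3.90 and 5.56 RPM it was 1.02 (104 names) and 0.59 (1612 names). The difference was positive in all 7 level bins, from 0.13 to 0.43. Sorted by EZH2 occupancy in WT ESCs, a single library, the share of names with a rise of 1 or more went from 1.45% in the lowest decile to 20.5% in the highest. Sorted by H3K27me3, the median change went from -0.09 in the lowest decile to 0.68 in the highest.

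The methylation of lysine 4 changed less than the acetylation at these promoters. Over the 3855 names with H3K27me3, the median H3K4me3 change was -0.06 and the median H3K4me1 change 0.34, where the H3K27ac change was 0.65.

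The CpG content of the window followed the change. In the decile of windows with the fewest CpGs (median 0.560 per 100 bases), the median H3K27ac change was -0.14, and it went up from decile to decile to 0.63 at 5.04 CpGs per 100 bases. Within each decile, names with H3K27me3 had a higher median than names without, for example 0.77 (1151 names) against 0.57 in the CpG-richest decile and 0.65 (478 names) against 0.39 in decile 7. The lowest decile held 16 names with H3K27me3, with a median of 0.42 against -0.14.

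A rise of 1 or more was seen in 2112 gene names at 1751 separate places, 6.5% of those compared. Both marks were present at 753 of them in WT ESCs, H3K27me3 alone at 92, H3K4me3 alone at 860 and neither at 407. The median H3K27ac of the 2112 was 1.84 RPM in WT, 2.68 RPM in Het, 4.37 RPM in Null and 2.74 RPM in Null+EZH2 ESCs, with input at 1.35 and 1.37 RPM in WT and Null ESCs. These names were selected by their WT and Null values, so Het and Null+EZH2 medians between the WT and Null medians follow in part from the selection. H3K27me3 at the same windows had a median of 3.98 RPM in WT and 0.815 RPM in Null ESCs. In Null ESCs, 1822 of the 2112 had at least 2 times as much H3K27ac as input. The median log2 ratio to input in Null ESCs was 1.68 for the 2112 and 0.98 over all names compared. The Null value was part of the selection of the 2112. Protein-coding genes made up 65.4% of them and lncRNA genes 31.9%, against 56.2% and 39.8% of all names compared that matched the annotation.

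Other start sites of the same genes had smaller changes. Of the names that rose, 824 had another annotated start at least 5 kb from the kept window. The median change there was 0.05, and 40 of the 824 rose by 1 or more there too. The names were selected for a rise at the kept window, the one with the most H3K27ac, so a smaller change elsewhere follows in part from that choice.

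The largest gains lay at the INK4 locus and at a small set of other start sites. CDKN2A encodes p16INK4A and p14ARF, which hold cells before S phase and stabilize p53. Its kept window (chr9:21992801-21997801), over the 300 bases printed above, had 0.886 RPM in WT, 2.12 RPM in Het, 5.70 RPM in Null and 1.88 RPM in Null+EZH2 ESCs. The change was 2.56 (95% interval for counting error, on the scale without the 0.1, 2.01 to 3.36). Input there was 1.38 RPM in WT and 1.21 RPM in Null ESCs, so H3K27ac was below input in the first and above it in the second. H3K27me3 went from 21.9 to 0.332 RPM. The antisense gene CDKN2B-AS1 (ANRIL) starts within the same window, and its value of 5.67 RPM in Null ESCs rests on the same reads.

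Other start sites of the INK4 locus ended at lower levels. The window at chr9:21972598-21977598, at another start of CDKN2A, rose from 0.805 to 2.58 RPM, with H3K27me3 falling from 26.0 to 0.324 RPM. The window at chr9:21967967-21972967 rose from 0.554 to 1.41 RPM, close to its input of 1.38 RPM in Null ESCs. CDKN2B, which encodes the CDK4/6 inhibitor p15INK4B, rose from 0.762 to 2.66 RPM (change 1.68, 95% counting interval 1.03 to 2.58), and Het and Null+EZH2 ESCs were at 0.990 and 0.933 RPM. At the start of CDKN2B-AS1 farthest from this locus (chr9:22111178-22116178), which had little H3K27me3, H3K27ac went from 1.72 to 1.19 RPM.

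RNA of the locus rose with it. CDKN2A was at 0.444, 0.456 and 0.328 RPM in the WT libraries, 10, 14.1 and 15 RPM in the Null libraries, and 2.70, 1.80 and 1.72 RPM in the Null+EZH2 libraries. No WT library overlapped an Null library (log2 fold change 4.68, standard error 0.32, adjusted p = 5.05e-06, limma). CDKN2B was at 0.0222, 0.0254 and 0 RPM in the WT and 1.27, 9.37 and 3.41 RPM in the Null libraries (4.95, standard error 0.55, adjusted p = 8.26e-05). Reads were counted without strand, so reads of CDKN2A, CDKN2B and CDKN2B-AS1 cannot be told apart where the genes overlap.

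FOSL2, an AP-1 transcription factor, rose from 1.34 RPM in WT to 5.99 RPM in Null ESCs (change 2.08, 95% counting interval 1.59 to 2.73), with 3.68 RPM in Het and 3.44 RPM in Null+EZH2 ESCs. Its H3K27me3 was at 17.3, 17.0, 0.818 and 15.3 RPM in WT, Het, Null and Null+EZH2 ESCs. The Het column therefore had more H3K27ac at a like level of H3K27me3. RNA was at 2.53, 4.39 and 3.65 RPM in WT and 4.22, 17.4 and 9.53 RPM in Null libraries, with 1 overlapping library (1.35, standard error 0.45, adjusted p = 0.0387, limma), and leaving out 1 library ended the call in 5 of 6 fits, up to adjusted p = 0.174.

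GIPR, the receptor of an incretin hormone, rose from 1.40 to 6.39 RPM, with Het ESCs at 1.46 RPM and Null+EZH2 ESCs at 3.15 RPM. Its H3K27me3 went from 14.8 to 0.536 RPM. GIPR RNA was at 0.200, 0.431 and 0.328 RPM in WT and 0.457, 0.488 and 1.13 RPM in Null libraries, which did not pass the test (adjusted p = 0.159 by limma, and 0.0361 when library numbers entered as a block).

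The other largest gains were RP4-555D20.3 and RP1-4G17.5, which had both marks, RP11-353N4.6 and AC053503.4, which had H3K4me3 alone, and DDC-AS1, CTC-265F19.2 and AL928768.3, which had neither. In all 7, Het and Null+EZH2 ESCs lay between WT and Null ESCs. The names were picked for their difference between WT and Null ESCs, so values between these follow in part from that choice. RP4-555D20.3 was at 0.894, 1.66, 4.30 and 2.07 RPM in WT, Het, Null and Null+EZH2 ESCs. AL928768.3 (chr14:105702102-105707102) was at 0.330, 0.474, 3.77 and 3.18 RPM, so Het ESCs were near the WT level and Null+EZH2 ESCs near the Null level. CDKN2A and CDKN2B-AS1 share 1 of the 10 places. Besides CDKN2A and FOSL2, RNA passed the test for RP1-4G17.5 and CDKN2B-AS1 (adjusted p = 0.00566 and 0.00615, limma).

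**Figure D2:**
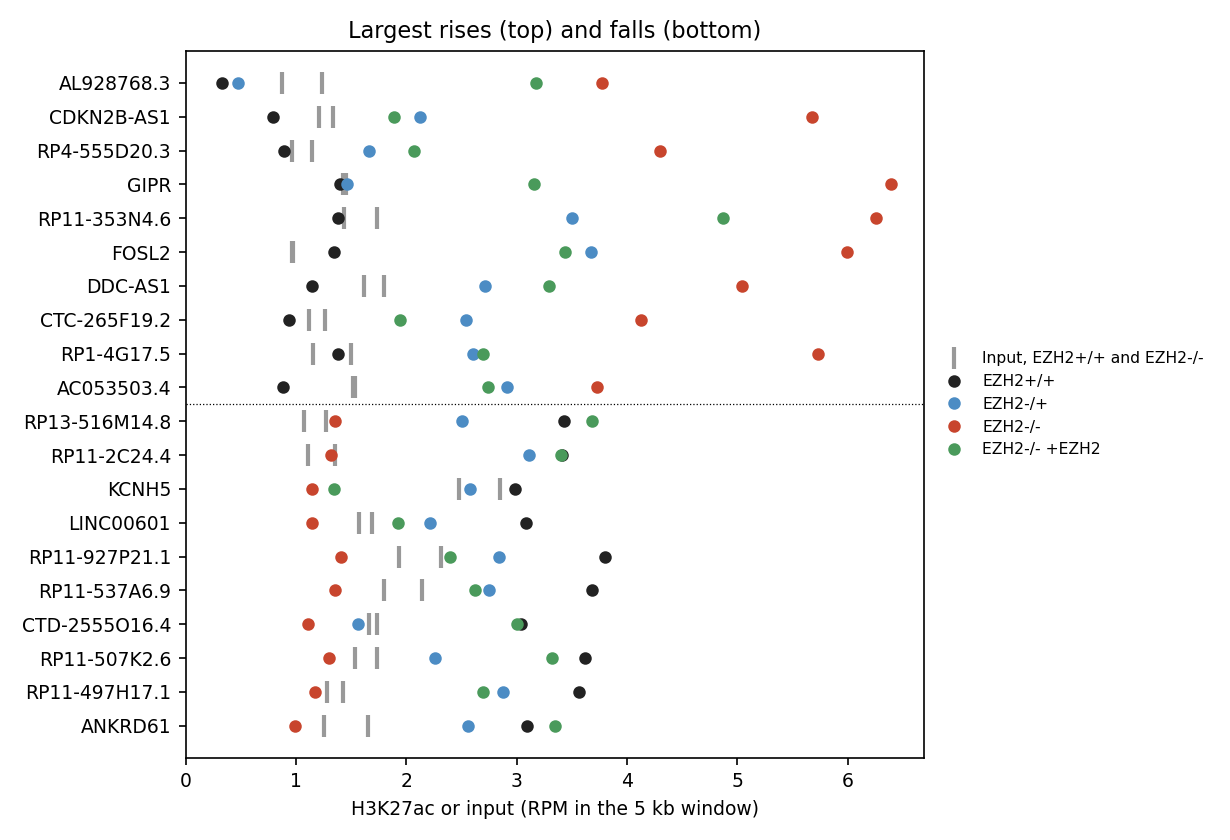
H3K27ac in RPM in 4 genotypes (coloured points) and input in WT and Null ESCs (grey ticks) at the windows with the 10 largest gains (above the dotted line) and the 10 largest losses (below it). At the gains Null ESCs sit between 3.73 and 6.39 RPM, far above input, and at the losses between 0.987 and 1.41 RPM, where WT ESCs are between 2.98 and 3.8 RPM.

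Losses of H3K27ac were fewer and lay at windows with little H3K27ac over input. A fall of 1 or more was seen in 503 gene names at 490 places, 1.55% of those compared, and 492 of them had neither mark in WT ESCs. Their median H3K27ac was 1.94 RPM in WT, 1.75 RPM in Het, 0.726 RPM in Null and 1.41 RPM in Null+EZH2 ESCs. As for the rises, Het and Null+EZH2 medians between the WT and Null medians follow in part from the selection. Input was 1.82 RPM in WT and 1.69 RPM in Null ESCs, so the median start was near input and the median end below it. Only 36 of the 503 had at least 2 times as much H3K27ac as input in WT ESCs. The median log2 ratio to input in WT ESCs was 0.12 for the 503 and 0.61 over all names compared.

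The windows that lost H3K27ac were poor in CpG and often lay at lncRNA genes. They had a median of 39.0% GC and 0.820 CpGs per 100 bases, against 47.8% and 1.98 for all names compared. Of those that matched the annotation, 68.2% were lncRNA genes. H3K4me3 changed by a median of -0.83 and H3K4me1 by -0.69. For all compared names with neither mark these medians were -0.54 and -0.01.

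H3K27me3 rose at many of these windows, against the trend of the genome. Its median change was 0.30 at the 503 names that lost H3K27ac, -0.83 over all names compared and -2.22 at the 2112 that gained H3K27ac. It rose by 1 or more at 134 of the 503 (26.6%), against 691 of all 32485 (2.13%). Of those 691 names, 134 (19.4%) lost H3K27ac by 1 or more, against 1.16% of the other names. RPM are shares of each library's own reads, and the part of this scaling in the rise of H3K27me3 was not tested.

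**Figure D3:**
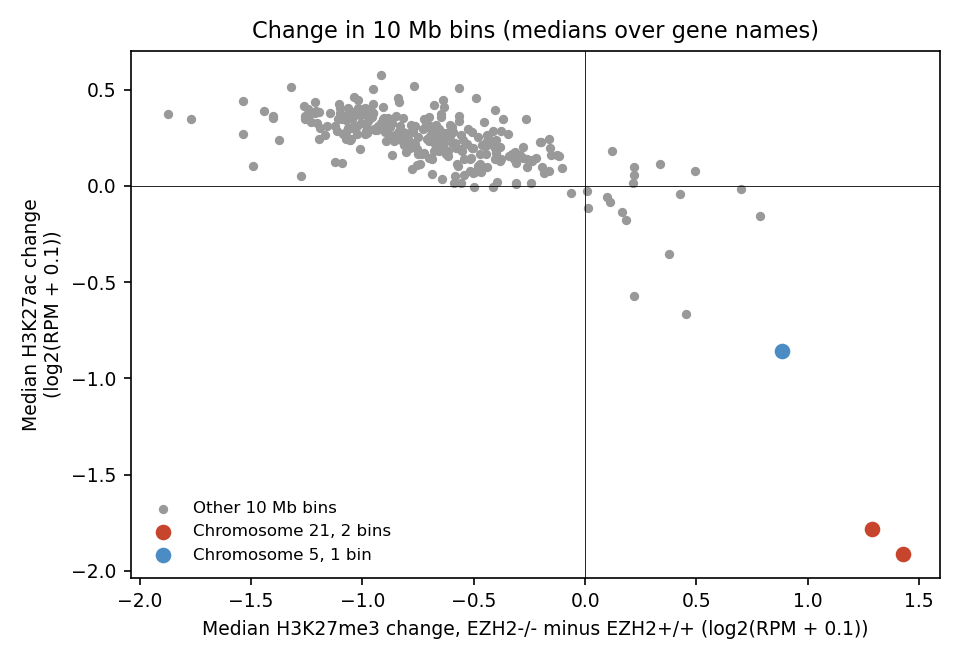
Median change of H3K27me3 (horizontal) and of H3K27ac (vertical) from WT to Null ESCs in 288 bins of 10 Mb with at least 20 gene names, on the log2(RPM + 0.1) scale. Most bins sit at lower H3K27me3 and higher H3K27ac, 15 bins combine more H3K27me3 with less H3K27ac, and 2 bins of chromosome 21 are the farthest out, at -1.91 and -1.78 for H3K27ac.

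One stretch of chromosome 21 stood apart from the rest. Between 10 and 20 Mb, the median H3K27ac of 62 gene names was 1.40 RPM in WT, 1.32 RPM in Het, 0.230 RPM in Null and 0.431 RPM in Null+EZH2 ESCs. H3K27me3 was 1.12, 0.876, 3.29 and 1.72 RPM in the same order. Input was 1.76, 1.66, 1.39 and 1.39 RPM, a median change of -0.23 from WT to Null ESCs. H3K27ac fell by 1 or more at 45 of the 62 names, and at 39 of these H3K27me3 rose by 1 or more. The bin from 20 to 30 Mb was alike, with 48 of 79 names falling and a median of 0.257 RPM in Null ESCs. These were the lowest of 288 bins, and the third was chromosome 5 from 20 to 30 Mb, with a median change of -0.86 for H3K27ac and 0.89 for H3K27me3.

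RNA fell across the same stretch. All 12 gene names tested between 10 and 20 Mb of chromosome 21 were called lower in Null than in WT ESCs by limma, and none higher, where 19.3% of all names with both measurements were called lower. Over all genes tested for RNA, 12.6% were called higher and 18.8% lower. With each of the 6 libraries left out in turn, 11 or 12 of the 12 were called. From 20 to 30 Mb, 8 of 20 were lower and none higher. These names were picked after their values were seen.

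NRIP1, a nuclear receptor corepressor, lies in this stretch. Its H3K27ac was 1.91 RPM in WT, 3.04 RPM in Het, 0.889 RPM in Null and 0.625 RPM in Null+EZH2 ESCs. Its RNA was at 25.7, 26.8 and 13.1 RPM in WT, 5.38, 3.45 and 0.683 RPM in Null, and 2.98, 3.97 and 4.92 RPM in Null+EZH2 libraries (log2 fold change -3.08, standard error 0.62, adjusted p = 0.00295, limma). The Null+EZH2 libraries stayed low for NRIP1, although their EZH2 RNA was at 256 to 385 RPM. CXADR, the coxsackievirus and adenovirus receptor, also fell, from 79.2, 62.0 and 62.8 RPM to 25.2, 17.7 and 12.1 RPM (-1.94, standard error 0.30, adjusted p = 0.000567), while its H3K27ac was 3.24 RPM in WT and 3.89 RPM in Null ESCs. Over all windows of the bin that starts at 10 Mb of chromosome 21, the input change from WT to Null ESCs was -0.27. The H3K27ac change there was -1.88, and both were the lowest of 292 bins counted over all windows. The copy number of the stretch in each line was not tested.

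The 10 largest losses among windows with at least 2 RPM on average all had neither mark. ANKRD61 had 3.09 RPM in WT, 2.56 RPM in Het, 0.987 RPM in Null and 3.34 RPM in Null+EZH2 ESCs (change -1.55, 95% counting interval -2.40 to -0.89). Null+EZH2 ESCs were at the WT level there. KCNH5, a voltage-gated potassium channel, had 2.98, 2.57, 1.14 and 1.35 RPM in the same order, and Null+EZH2 ESCs stayed low. The others were RP11-497H17.1, RP11-507K2.6, CTD-2555O16.4, RP11-537A6.9, RP11-927P21.1, LINC00601, RP11-2C24.4 and RP13-516M14.8. None of the 10 had an RNA change that passed the test, with RNA tested for 8 of them.

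Members of gene lists are given next, chosen for roles in ESCs and in early lineages. Over all gene names the median H3K27ac change was 0.28. Of all names compared, 6.5% rose and 1.55% fell by 1 or more. Of all genes tested for RNA, 12.6% were higher and 18.8% lower. Counts in the lists are to be read beside these shares. The H3K27ac rises of HOX genes (2 of 25), housekeeping genes (1 of 15) and collagen and extracellular matrix genes (1 of 19) were near that share.

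**Figure D4:**
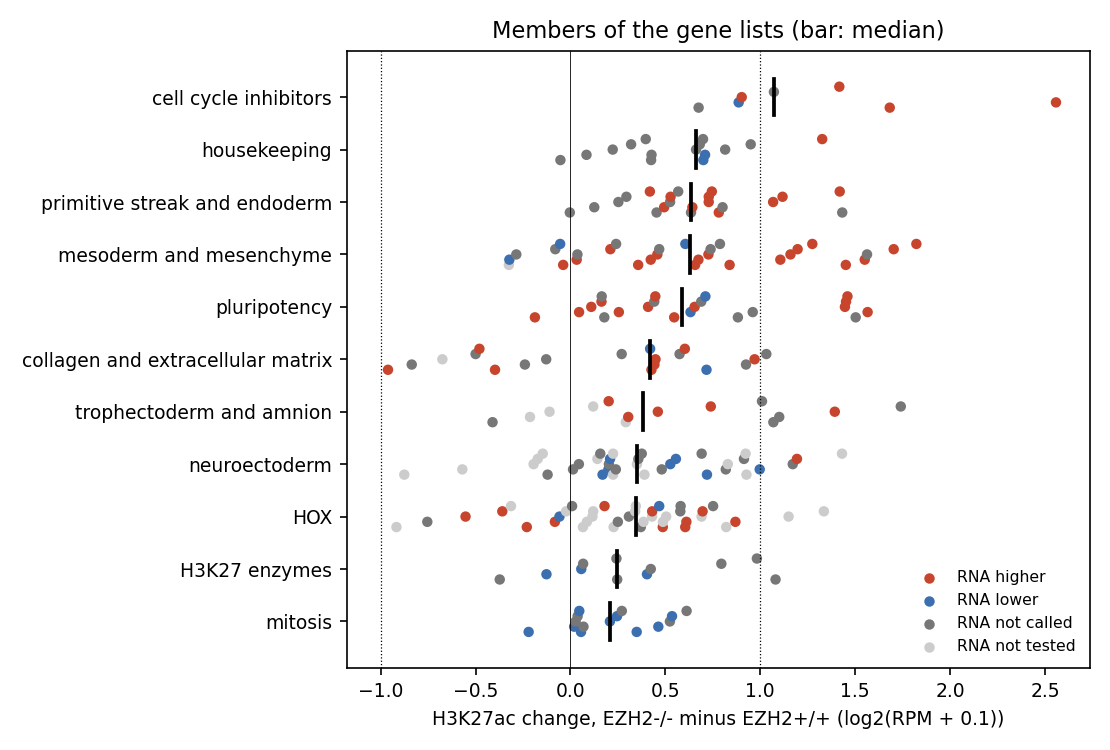
H3K27ac change from WT to Null ESCs (log2(RPM + 0.1)) of every member of 11 gene lists, with the list median as a bar and the RNA call as colour. Cell cycle inhibitors have the highest median (1.07) and mitosis genes the lowest (0.21). HOX genes reach from -0.92 to 1.33, with several RNA gains (red) below the dotted line at 1.

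Cell cycle inhibitors gained most. All 7 had more H3K27ac in Null ESCs, and 4 of 7 rose by 1 or more, with a list median of 1.07. CDKN1A (p21), a target of p53, rose from 1.81 to 5.00 RPM, with Null+EZH2 ESCs at 3.08 RPM, and CDKN2D (p19INK4D) from 1.98 to 4.26 RPM, with Null+EZH2 ESCs at 3.87 RPM. RNA of 4 members was higher and of 1 lower. CDKN1A RNA was at 2.80, 7.15 and 5.64 RPM in WT and 13.5, 19.4 and 14.8 RPM in Null libraries (1.68, standard error 0.51, adjusted p = 0.0251, limma), a call that 3 of 6 fits with a library left out did not keep. CDKN1B (p27) was the member with lower RNA, with an H3K27ac change of 0.89, and its RNA call was lost when RPM were rescaled by the median ratio (adjusted p = 0.0546, limma). CDKN1C had the smallest change, 0.68.

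Genes of the mesoderm and mesenchyme had the most members with a rise among the 11 lists by count, though the lists differ in size. The share was larger for cell cycle inhibitors (4 of 7) and for trophectoderm and amnion genes (5 of 14). Of 28 members compared, 9 rose by 1 or more and 0 fell, with a median of 0.63 over all 30 found, and 25 had H3K27me3. RNA was higher for 18 of 29 tested and lower for 3, and 8 were higher in both. TBX3, a T-box repressor, rose from 1.03 RPM in WT to 3.90 RPM in Null ESCs, with 1.49 RPM in Het and 0.993 RPM in Null+EZH2 ESCs. Its RNA was at 1.04, 1.47 and 0.503 RPM in WT and 7.12, 16 and 10.4 RPM in Null libraries (3.38, standard error 0.50, adjusted p = 0.000438, limma). TBX2 and ZEB2 had the lowest values of the list, both with a change of -0.32.

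Primitive streak and endoderm genes had a like median. The median change was 0.64 over 21 members, 4 rose by 1 or more (FOXA1, HHEX, CDX1 and NODAL) and 0 fell. RNA was higher for 11 and lower for 0. HHEX, a homeobox factor of the anterior endoderm, rose from 0.886 to 2.54 RPM, with Null+EZH2 ESCs at 1.25 RPM. FOXA1, a pioneer factor of the endoderm, rose from 0.784 to 2.28 RPM without an RNA change that passed the test (adjusted p = 0.586). GATA6, an endoderm factor, was at 0.847 RPM in WT and 1.38 RPM in Null ESCs, close to its input of 1.11 and 1.14 RPM, while its RNA rose from 3.42, 2.74 and 1.42 RPM to 21, 45.6 and 20.9 RPM (3.46, standard error 0.81, adjusted p = 0.00705, limma). CDX2 and MESP1 had the smallest changes, with MESP1 at 1.24 RPM in WT and 1.36 RPM in Null ESCs.

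Of the trophectoderm and amnion genes, 5 of 14 rose by 1 or more and 0 fell, with a median of 0.38. The 5 were TFAP2A, GATA3, TFAP2B, KRT19 and KRT7, and RNA passed the test for GATA3 alone among them. The kept TFAP2A window rose from 0.882 to 3.18 RPM, with input at 2.17 and 1.80 RPM. Its other start windows, with 29.1 to 41.3 RPM of H3K27me3 in WT ESCs, changed by -0.29 to 0.48. TFAP2A RNA was at 0.488, 2.46 and 0.830 RPM in WT and 0.387, 1.20 and 0.742 RPM in Null libraries. GATA3 rose from 0.757 to 2.15 RPM, and its RNA from 0.333, 0.507 and 0.284 RPM to 1.48, 3.74 and 1.84 RPM (2.29, standard error 0.52, adjusted p = 0.00579, limma). IGFBP3 had the lowest change of the list, -0.41.

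HOX genes lost most of their H3K27me3 and gained little H3K27ac. These homeobox genes set position along the body axis. All 39 had H3K27me3, with a median of 47.2 RPM in WT and 3.29 RPM in Null ESCs. H3K27ac had a median of 1.01 RPM in WT, 1.11 RPM in Het, 1.19 RPM in Null and 0.721 RPM in Null+EZH2 ESCs, and the median log2 ratio to input was -0.45 in WT and -0.10 in Null ESCs. It was above input for 9 of 39 in WT and 18 of 39 in Null ESCs. The median change was 0.34, and HOXD12 (1.10 to 2.92 RPM) and HOXC13 (0.81 to 1.92 RPM) were the 2 of 25 compared that rose by 1 or more.

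RNA of HOX genes went up without such gains. Of 21 tested, 11 were higher and 2 lower, and none of the 11 had an H3K27ac rise of 1 or more. By cluster, 4 of 7 tested HOXA genes, 5 of 10 HOXB, 0 of 2 HOXC and 2 of 2 HOXD genes were higher in RNA, and the median H3K27ac changes of the 4 clusters lay between 0.34 and 0.39. HOXD4 and HOXB9 had the lowest changes, -0.92 and -0.75.

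Neuroectoderm genes carried H3K27me3 in WT ESCs with 1 exception, and more of them had lower than higher RNA. H3K27me3 was present at 34 of 35, the median H3K27ac change was 0.35, and 3 of 25 compared rose by 1 or more (SIX6, LHX6 and OLIG1). RNA was higher for 1 of 21 tested and lower for 7. The summed neural markers given above were below WT in Het and Null+EZH2 libraries too. The 1 was LHX6, a LIM homeobox factor of interneurons, whose H3K27ac rose from 1.55 to 3.67 RPM and whose RNA rose from 0.644, 0.811 and 0.809 RPM to 4.33, 8.15 and 5.08 RPM (2.75, standard error 0.30, adjusted p = 7.99e-05, limma). SIX6, an eye-field factor, rose from 0.834 to 2.42 RPM, with RNA below the level tested. POU3F3 and NEUROD1 had the lowest changes, -0.88 and -0.57.

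Pluripotency genes, of which 5 had H3K27me3 at the kept window in WT ESCs, had a median change of 0.59. The 5 of 22 that rose by 1 or more were FOXD3, LIN28A, TDGF1, LEFTY2 and LEFTY1, and 0 fell. FOXD3 rose from 1.14 RPM in WT to 3.58 RPM in Null ESCs, with 2.95 RPM in Het and 2.24 RPM in Null+EZH2 ESCs, and its RNA from 3.02, 0.811 and 1.38 RPM to 14.4, 8.35 and 7.69 RPM (2.61, standard error 0.67, adjusted p = 0.0111, limma, lost in 1 of 6 fits with a library left out). LIN28A, an RNA-binding protein of ESCs, rose from 1.78 to 5.21 RPM while its RNA was at 842 to 1068 RPM in WT and 822 to 939 RPM in Null libraries.

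The core factors did not pass 1 in H3K27ac. POU5F1 was at 3.65 RPM in WT and 3.77 RPM in Null ESCs (change 0.05, 95% counting interval -0.41 to 0.51), although its RNA rose (0.92, standard error 0.16, adjusted p = 0.00103, limma). NANOG was at 4.06 and 3.56 RPM (change -0.19, 95% counting interval -0.65 to 0.27), while its input changed by -0.33, with RNA up from 20.3 to 24.0 RPM in WT to 84.5 to 92.4 RPM in Null libraries (1.98, standard error 0.38, adjusted p = 0.00215). SOX2 went from 2.24 to 3.73 RPM, with RNA down from 203 to 249 RPM to 88.0 to 135 RPM (-1.05, standard error 0.21, adjusted p = 0.00263).

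Housekeeping genes, with no H3K27me3, had a median change of 0.66 over 15, second only to the cell cycle inhibitors among the 11 lists. ACTB alone rose by 1 or more, from 2.90 to 7.43 RPM, with RNA at 2191 to 2745 RPM in WT and 3782 to 3965 RPM in Null libraries. GAPDH was at 4.74 and 6.28 RPM (change 0.40, 95% counting interval 0.03 to 0.78), with Null+EZH2 ESCs at 9.37 RPM. RNA of the 15 was higher for 1 and lower for 2.

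Of the 19 collagen and extracellular matrix genes, SPARC alone rose by 1 or more (3.21 to 6.67 RPM), the median was 0.42, and RNA was higher for 8 of 18 and lower for 2. FN1 (fibronectin) had a change of 0.97, and COL6A1 had the lowest, -0.96, with higher RNA (adjusted p = 0.00183, limma). The enzymes that write and erase marks on H3K27 had a median of 0.25 over 11, with KDM6B, an H3K27 demethylase, rising from 1.85 to 4.03 RPM and SUZ12, a PRC2 subunit, from 2.02 to 4.09 RPM (change 0.98), and their RNA was higher for 0 and lower for 3. EZH2 itself was at 2.78 RPM in WT and 2.54 RPM in Null ESCs. The mitosis list had a median of 0.21 over 15, none past 1 either way, while RNA was lower for 9 of 15. The 9 include the meiosis genes DMC1 and MSH5 and the replication kinase CDC7. With a library left out, the lower calls of CCNB2, CDK1 and TTK were lost in 6, 5 and 4 of 6 fits. Those of BUB1, BUB1B, CDC7, KIF15 and MSH5 were lost in 0.

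H3K27ac and RNA changes were then set side by side for the 19570 gene names with both. RNA was called higher in 11.2% of them and lower in 19.3%. Of 1603 names with an H3K27ac rise of 1 or more, 379 (23.6%) were higher and 238 (14.8%) lower. The 379 were 17.3% of the 2188 names with higher RNA. Their median RNA log2 fold change was 0.11, against -0.14 over all 19570. Of 148 names with an H3K27ac fall of 1 or more, 9 were higher and 27 lower.

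RNA calls of the gains are given by the marks in WT ESCs. Of 611 names with H3K27me3 that gained H3K27ac, 189 (30.9%) were higher in RNA and 60 lower. With neither mark it was 78 of 220 (35.5%) and 37. With H3K4me3 alone it was 112 of 772 (14.5%) and 141 lower. Over all names of each class, with or without a gain, the share with higher RNA was 19.5%, 14.1% and 6.64% in the same order, so it was above the class share in each of them. The genes with a gain and H3K4me3 alone already had a median RNA of 14.2 RPM in WT ESCs, against 2.07 RPM in those with H3K27me3.

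Over all names the relation was weak. Spearman's rho between the H3K27ac and RNA changes was 0.056 and Pearson's r 0.095, across gene names that share libraries and are not replicates. Over the 2402 names with H3K27me3 rho was 0.215. From the decile of names with the lowest H3K27ac change (median -0.47) to the decile with the highest (1.13), the share with higher RNA went from 6.95% to 22%, with most of the step in the last decile. The share with lower RNA was 17.7% in the first decile and 14.9% in the last.

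**Figure D5:**
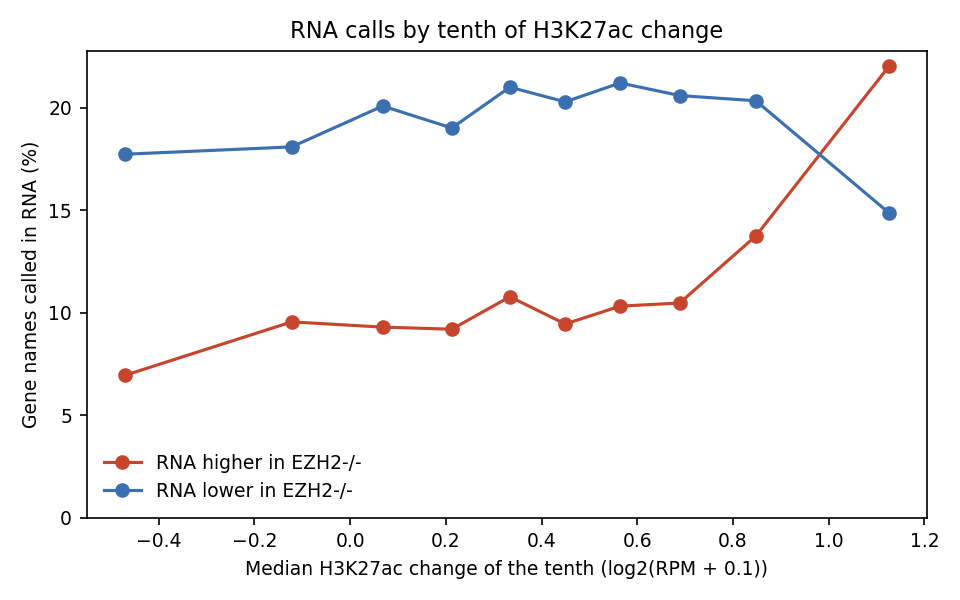
Share of gene names called higher (red) or lower (blue) in RNA in Null ESCs, by decile of the H3K27ac change (1957 names each), against the median H3K27ac change of the decile. The share called higher stays between 6.95% and 13.7% in the first 9 deciles and reaches 22% in the last, where the share called lower drops to 14.9%.

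Within the H3K27me3 promoters, RNA calls followed the size of the H3K27ac gain. In the quartile with the smallest change (median 0.21), 13.8% of 601 names were higher in RNA and 23.8% lower. In the quartile with the largest (1.24), 30.9% of 601 were higher and 9.65% lower. The median H3K27me3 in WT ESCs was 10.6 RPM in the first and 10.9 RPM in the last quartile, so both began with a like level of the mark.

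Among names past 1 in H3K27ac, the largest RNA gains were of GNA14, LEFTY2, VAV1, NPPB and CDKN2B. GNA14, a G protein alpha subunit, had H3K27ac of 2.29 RPM in WT, 2.07 RPM in Het, 4.87 RPM in Null and 2.69 RPM in Null+EZH2 ESCs. Its RNA was at 0.133, 0.0761 and 0 RPM in WT and 10.9, 10.4 and 9.38 RPM in Null libraries (6.01, standard error 0.53, adjusted p = 2e-05, limma). It had neither mark in WT ESCs, and H3K4me3 went from 1.33 to 12 RPM.

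VAV1, a guanine nucleotide exchange factor of blood cells, rose from 1.52 to 3.88 RPM, with RNA at 0.0666, 0.0507 and 0.109 RPM in WT and 5.14, 4.56 and 8.49 RPM in Null libraries. NPPB, the natriuretic peptide BNP, rose from 1.02 to 2.18 RPM, with RNA at 0.0888, 0.761 and 0.219 RPM against 3.41, 45.9 and 13.1 RPM. LEFTY2, an inhibitor of NODAL signalling, rose from 2.31 to 6.49 RPM, with RNA at 8.37, 25.9 and 14.0 RPM against 401, 831 and 551 RPM. LEFTY1 and LEFTY2 are close paralogues, and reads shared between them could be counted for either.

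The largest RNA falls in the same set were of AP001347.6, FGF3, CNTNAP4, STOML3 and MIAT. FGF3, a growth factor with both marks, lost H3K27ac together with H3K27me3. Its H3K27ac was 1.85, 1.40, 0.639 and 1.15 RPM in WT, Het, Null and Null+EZH2 ESCs, and its RNA was at 3.8, 4.89 and 0.918 RPM in WT and 0.0176, 0.0563 and 0.0297 RPM in Null libraries (-4.34, standard error 0.51, adjusted p = 0.000112, limma). Het libraries were at 0.0490 RPM or below for FGF3 too. STOML3, a stomatin-like membrane protein whose start holds no CpG above, went from 3.39 to 1.52 RPM, with RNA at 1.38, 0.735 and 1.14 RPM in WT and listed at 0 in all 3 Null libraries.

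AP001347.6 lies in the chromosome 21 stretch described above, and went from 1.81 to 0.288 RPM with RNA at 2.11, 2.84 and 2.16 RPM against 0.0352, 0.0188 and 0 RPM. CNTNAP4, a neuronal adhesion protein, went from 1.88 to 0.795 RPM with input at 1.65 and 1.90 RPM. MIAT, a lncRNA, gained H3K27ac while its RNA fell. Its window had 3.54 RPM in WT and 7.26 RPM in Null ESCs, H3K27me3 went from 5.36 to 0.709 RPM, and RNA was at 131, 168 and 91.7 RPM in WT and 22.6, 7.98 and 8.82 RPM in Null libraries (-3.42, standard error 0.40, adjusted p = 0.000107, limma).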

How the data were processed

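Native ChIP-seq and RNA-seq of SSEA4-sorted H9 ESCs of 4 genotypes were used. The authors trimmed reads with Trim Galore 0.4.0, aligned ChIP-seq reads to GRCh38 with Bowtie2 2.2.5 and RNA-seq reads with TopHat2 2.0.12, and counted in SeqMonk non-duplicated ChIP-seq reads within 2.5 kb of start sites and RNA-seq reads per gene without strand. The deposited values are log2 RPM. All low ChIP-seq values lay on the steps (tolerance 0.02) expected when the logarithms of 2 libraries are averaged, and these steps gave the depth per library. No per-sample column was left unmatched (0).

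Values were returned to RPM, and changes taken on log2(RPM + 0.1), which understates changes of low values. H3K27ac counts are of changes of at least 1, without a test. The 95% counting intervals (normal approximation to Poisson counts, depth of 2 libraries) cover counting error only, since the columns hold no separate replicates. For the deposited log2 RPM of RNA, values of genes without a read were set to 0, and limma 3.58.1 in R 4.3.3 (lmFit, eBayes with trend) was fitted to log2(RPM + 0.1) of 12 libraries for the 20608 of 35805 genes averaging 0.1 RPM or more. Calls are Benjamini-Hochberg adjusted p under 0.05 over all 20608 genes. Of these, 2593 (12.6%) were higher and 3870 (18.8%) lower in EZH2-/- than in EZH2+/+ ESCs. The study calls the 3 libraries of a genotype biological replicates of a line without saying whether they were separate cultures, so p values measure the spread between these libraries of 1 line. The fit was tested on simulated data. Tables were handled with Python 3.11.15, pandas 2.3.3 and numpy 2.4.6.

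Library numbers recur between genotypes. Deviations of same-numbered libraries from their genotype means correlated at 0.224, 0.249 and 0.493 across genes, and a fit with the number as a block was an alternative. With the block, 3566 genes were higher and 5773 lower, and 476 instead of 379 names with an H3K27ac rise had higher RNA. With RPM rescaled by the median ratio, 3288 were higher and 2920 lower (main 2593 and 3870), and the median log2 fold change moved from -0.13 towards 0.

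Annotation came from GENCODE release 44 on GRCh38. Of the window identifiers, 98.9% were found, and 84.3% of window centres lay on one of its start sites. Named genes were the 10 largest rises and falls of H3K27ac (1 name per place) among windows averaging 2 RPM or more with at least 0.5 RPM of input and an input change within 0.5, the 5 largest RNA changes each way among names past 1 in H3K27ac, the extremes of each list, genes the study names, and EZH2, POU5F1, SOX2, NANOG, GAPDH and MESP1. Where 5 or fewer members of a list passed 1, all are named, and these and the genes of chromosome 21 were chosen after their values were seen. Members and lists were chosen with earlier results of these data known.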

Additional observations from a re-analysis of the deposited data

How the results depend on the processing

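The direction of the change over all windows, of the change at promoters with H3K27me3 and of the correlation with RNA was kept under every alternative tried. The median change over all windows was 0.19 with a pseudocount of 1 RPM and 0.26 with the input change subtracted. At promoters with H3K27me3 it ranged from 0.42 (centred on names without the mark) to 0.68 (mean of at least 1 RPM).

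Counts past a fixed fold moved more. With a pseudocount of 1 RPM, 541 names rose and 74 fell, and 136 of those that rose had higher RNA. Centred on the median of gene names, 576 rose and 1296 fell. Falls were 1002 without a minimum, 815 with the first window listed, 65 among windows averaging 2 RPM or more and 36 with at least 2 times input in EZH2+/+ ESCs, the last 2 chosen after seeing the data. All 541 and 576 were among the 2112, which follows from construction, since both settings only lower a rise. With the input change subtracted, 3016 rose, and 1558 of these were among the 2112. With the first window listed, 1559 of 2043 were among them, and with the window of most H3K27me3 1826 of 2638. The cause of these shifts beyond their construction was not tested.

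With each library left out in turn, RNA calls ranged from 1796 to 2294 higher and from 2343 to 3374 lower, and names with gains of both from 248 to 333. The lowest lower counts came without EZH2-/- replicate 2 (2343) and without EZH2+/+ replicate 2 (2466), and the lowest count of both (248) without EZH2-/- replicate 2. The replicate block raised the lower calls most (5773, from 3870). In this balanced design the block leaves the fold changes as they are.

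ChIP-seq columns hold no separate replicates, so depth gives their counting error and the spread between libraries is not known. A floor of 3 reads is 0.248 RPM of H3K27ac in EZH2+/+ and 0.344 RPM in EZH2-/- ESCs, and values near it, as on chromosome 21, are known only to be low.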
